A study of Mus musculus with 47 samples.

Results

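The genes described here encode proteins of the synaptic vesicle and of the presynaptic release machinery. They are the rows of both deposited count tables whose Ensembl identifiers mapped to a list of presynaptic gene symbols. All 38 of the 38 symbols were found, among 35032 genes listed in either table, and all 38 passed the level set for testing, a mean count of at least 50, in each region. The members comprised 3 synapsins, 2 genes of the synaptophysin family, 5 synaptotagmins, 8 genes of SNARE proteins and their recycling, 2 complexins, 3 genes of the SV2 family, 2 vesicular glutamate transporters, 2 Rab3 genes, 7 genes of the active zone and 4 of endocytosis.

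RNA was sequenced from brainstem, dissected as its posterior medullary part, and from the whole hippocampus of male mice on the C57BL/6 background. Transgenic animals (TG) were homozygous for human A30P mutant alpha-synuclein under the Thy1 promoter, which is active in neurons, and wild-type animals (WT) came from a separate colony of shared origin, so genotype and colony cannot be told apart. From 5 weeks to 12 months of age each genotype received a standard diet (SD) or a high-fat diet (HFD), giving the groups WT_SD, WT_HFD, TG_SD and TG_HFD. The 47 libraries were 23 of brainstem, with 5 of WT_SD and 6 of every other group, and 24 of hippocampus, with 6 of each group. The questions were whether the genotype, the diet or both moved the presynaptic genes within a region, and how the regions differed. The authors describe RNA of both regions as taken from 6 animals per group, but the labels name no animal. Which libraries of the regions share a mouse is therefore not known, and region and dissection cannot be told apart.

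Total counts ranged from 10020784 to 15078812 per brainstem library and from 11945971 to 17328447 per hippocampus library. The human transgene was counted 36959 to 72863 times in the 24 TG libraries and 6 to 50 times in the 23 WT libraries, so that no library went against its genotype label. The labelled tissues were checked on the summed CPM of marker genes, where CPM are counts per 1000000 counts of the library. The 8 hindbrain neuron markers summed to 323 to 552 CPM in brainstem and to at most 0.664 CPM in hippocampus. Of these markers 7 were above 1 CPM in brainstem and 0 in hippocampus, where 4 were at 0 in every library. The most abundant markers count most in such a sum, and the single markers are not given. The hindbrain sum may therefore rest largely on few of its genes. The 8 hippocampal neuron markers summed to 141 to 194 CPM in brainstem and to 1252 to 1482 CPM in hippocampus.

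At a presynaptic terminal, neurotransmitter is loaded into vesicles by transporters, among them the vesicular glutamate transporters, and synapsins tether the vesicles to each other and to actin. Vesicles dock at the active zone, a scaffold in which Bassoon, Piccolo, RIM and ERC proteins hold them close to calcium channels, and Munc13 proteins prime them for fusion. The SNARE proteins synaptobrevin, syntaxin and SNAP-25 draw vesicle and plasma membrane together, and complexins bind the assembled complex. Some synaptotagmins trigger fusion when they bind calcium. NSF and its SNAP adaptors take the complexes apart again, and dynamin, amphiphysin, endophilin and AP180 retrieve the membrane. Alpha-synuclein is itself a presynaptic protein that binds vesicles and is known to promote the assembly of SNARE complexes.

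Between the regions, most presynaptic genes differed, and in several families one paralog was higher in brainstem and the other in hippocampus. Counts of both regions were fitted in a single model with edgeR's quasi-likelihood test, and a gene was called when its p, adjusted after Benjamini and Hochberg, was at most 0.05 and its log2 fold change at least 0.3 either way. In WT_SD, 23 of the 38 members were called higher in hippocampus, against 28.9% of the 13462 tested genes, and 10 were called lower, against 30.6%. In WT_HFD, 23 were higher, against 29.9% of all genes, and 10 lower, against 31.6%. In TG_SD, 23 were higher, against 29.3%, and 10 lower, against 31.6%. In TG_HFD, 22 were higher, against 28.3%, and 11 lower, against 30.3%. Of the members, 32 were called in all 4 groups, 22 of them higher and 10 lower in hippocampus, and all 38 had the same sign in every group. The log2 fold changes of the 4 groups spanned at most 0.76 (*Slc17a6*), 0.44 (*Sv2c*) and 0.44 (*Pclo*) for the members that varied most.

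The median log2 fold change of the members, hippocampus over brainstem, was 0.51 in WT_SD, 0.57 in WT_HFD, 0.48 in TG_SD and 0.50 in TG_HFD, where the median of all tested genes lay between -0.025 and -0.013. At 2-fold or more in WT_SD, 12 members were called higher in hippocampus, as were 9.71% of all genes, and 7 lower, as were 8.79%. For 28 of the 38 members the CPM of the 23 brainstem and the 24 hippocampus libraries did not overlap at all, which held for 35% of the tested genes. Summed CPM of the oligodendrocyte, neuron and endothelial markers did not overlap between the regions. Those of the astrocyte, oligodendrocyte precursor, microglia, ependymal, choroid plexus and meningeal fibroblast markers overlapped. All 7 oligodendrocyte markers were above 1 CPM in both regions, and they summed to 12327 to 20787 CPM in brainstem and 2999 to 4664 CPM in hippocampus. The 8 neuron markers (*Rbfox3*, *Eno2*, *Uchl1*, *Map2*, *Tubb3*, *Nefl*, *Nefm* and *Stmn2*) summed to 4631 to 5562 CPM and 3413 to 3824 CPM. In such sums the most abundant markers count most, and the single markers are not given, so the sums do not measure the share of neurons. The part of the cell types in the differences of the members was not tested, and in bulk tissue fewer cells of a type and less RNA per cell cannot be told apart.

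**Figure D1:**
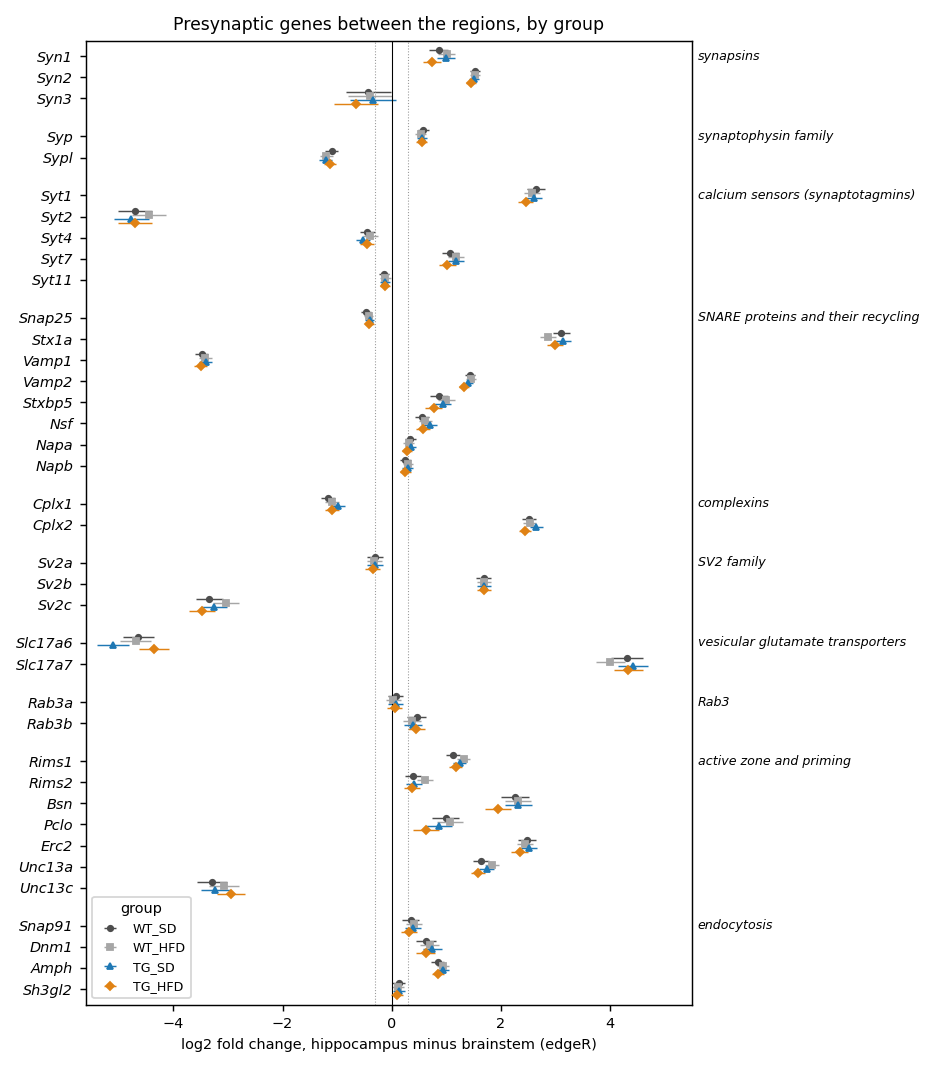
Log2 fold change between hippocampus and brainstem (positive values are higher in hippocampus) of the 38 presynaptic genes, with 1 symbol for each of the groups WT_SD, WT_HFD, TG_SD and TG_HFD, horizontal bars for the 95% interval (normal approximation) and dotted lines at 0.3 either way. The symbols of a gene lie close together, with Syt2, Slc17a6, Vamp1, Sv2c and Unc13c far on the side of brainstem and Slc17a7, Stx1a, Syt1, Cplx2 and Erc2 far on the side of hippocampus.

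The vesicular glutamate transporters lay farthest apart. *Slc17a7* (ENSMUSG00000070570) encodes VGLUT1 and *Slc17a6* (ENSMUSG00000030500) encodes VGLUT2, which fill vesicles with glutamate in largely separate sets of excitatory neurons. *Slc17a7* was at 34.9 to 103 CPM in brainstem, with a median of 62.3, and at 1099 to 1429 CPM in hippocampus, with a median of 1239. *Slc17a6* was at 195 to 263 CPM in brainstem, with a median of 231, and at 3.99 to 15.6 CPM in hippocampus, with a median of 8.71. No library of one region reached those of the other for either gene. In WT_SD the log2 fold change was 4.31 ± 0.15 (SE; edgeR adjusted p = 7.06e-30) for *Slc17a7* and -4.64 ± 0.15 (adjusted p = 2.33e-31) for *Slc17a6*. Scaled for length, as RPKM (CPM per kilobase of exon), *Slc17a6* made up 78.05% ± 5.46 (SD, n = 23) of the level of both transporters in brainstem and 0.740% ± 0.272 (SD, n = 24) in hippocampus.

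The complexins, which bind assembled SNARE complexes, also lay on opposite sides. *Cplx1* (ENSMUSG00000033615) was at 762 to 1072 CPM in brainstem (median 973) and 401 to 502 CPM in hippocampus (median 444). *Cplx2* (ENSMUSG00000025867) was at 202 to 284 CPM (median 237) and 1276 to 1486 CPM (median 1359). Neither gene overlapped between the regions, *Cplx1* being the higher in brainstem and *Cplx2* in hippocampus. The log2 fold change in WT_SD was -1.16 ± 0.067 for *Cplx1* (edgeR adjusted p = 7.36e-21) and 2.52 ± 0.064 for *Cplx2* (adjusted p = 3.66e-35). In the RPKM of both, *Cplx1* took 89.9% ± 0.805 (SD, n = 23) in brainstem and 42.2% ± 1.38 (SD, n = 24) in hippocampus.

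The promoters of both pairs are shown because their members lay on opposite sides of the region comparison. Sequences of 300 bases, from 250 before to 50 after an annotated start, were taken from RefSeq on GRCm38.p6, and 32 of the 38 members had at least 1 entry, *Syn3*, *Syt4*, *Syt7*, *Snap25*, *Vamp2* and *Rims2* being without. Each is written 5′ to 3′ along its gene. Capitals mark the GC box, GGGCGG, or its reverse complement CCGCCC, the letters that Sp1 and related factors bind. The windows lie at chr5:108549978-108550277 on the minus strand for *Cplx1*, chr13:54302306-54302605 on the plus strand for *Cplx2*, chr7:51621580-51621879 on the plus strand for the first of 2 listed starts of *Slc17a6*, and chr7:45163671-45163970 on the plus strand for *Slc17a7*.
Cplx1: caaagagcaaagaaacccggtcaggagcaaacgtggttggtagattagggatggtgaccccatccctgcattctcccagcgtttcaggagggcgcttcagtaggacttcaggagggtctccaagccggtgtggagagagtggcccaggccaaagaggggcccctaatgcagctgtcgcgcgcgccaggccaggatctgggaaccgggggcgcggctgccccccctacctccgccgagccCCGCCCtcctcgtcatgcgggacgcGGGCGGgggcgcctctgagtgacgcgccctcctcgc
Cplx2: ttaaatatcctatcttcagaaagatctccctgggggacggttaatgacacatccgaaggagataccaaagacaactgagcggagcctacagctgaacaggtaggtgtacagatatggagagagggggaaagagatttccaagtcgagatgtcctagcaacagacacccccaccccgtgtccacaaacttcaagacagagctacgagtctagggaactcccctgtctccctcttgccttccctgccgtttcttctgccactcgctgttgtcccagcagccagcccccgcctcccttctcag
Slc17a6: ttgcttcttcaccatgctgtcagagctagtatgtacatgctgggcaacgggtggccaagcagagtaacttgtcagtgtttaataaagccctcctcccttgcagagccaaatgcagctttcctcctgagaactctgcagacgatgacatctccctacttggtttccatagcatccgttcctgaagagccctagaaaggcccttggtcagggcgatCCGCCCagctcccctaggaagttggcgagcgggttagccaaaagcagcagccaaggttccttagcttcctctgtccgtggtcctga
Slc17a7: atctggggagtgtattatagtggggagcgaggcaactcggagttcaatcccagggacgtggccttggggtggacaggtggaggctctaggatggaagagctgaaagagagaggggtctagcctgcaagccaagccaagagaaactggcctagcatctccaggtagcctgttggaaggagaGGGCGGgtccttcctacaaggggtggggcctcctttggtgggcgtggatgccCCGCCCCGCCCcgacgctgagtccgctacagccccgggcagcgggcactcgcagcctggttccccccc
*Cplx1* held 2 GC boxes and 24 CpG pairs in its window, and *Cplx2* held 0 and 9. *Slc17a7* held 3 GC boxes, of which 2 overlap by 1 base, and 13 CpG pairs, and *Slc17a6* held 1 and 8. Of the 41 promoters of presynaptic members, 28 (68.3%) held the motif on either strand, as did 35.7% of the 32851 promoters of the table, with medians of 19 and 7 CpG pairs. A match describes letters in the window, and no binding was measured.

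Among the synaptotagmins, *Syt1* (ENSMUSG00000035864) and *Syt2* (ENSMUSG00000026452) encode the fast triggers of synchronous release. *Syt1* was at 194 to 328 CPM in brainstem (median 260.4) and 1302 to 1697 CPM in hippocampus (median 1551). *Syt2* was at 366 to 675 CPM (median 542) and 9.84 to 30.04 CPM (median 20.2). The regions did not overlap for either gene. The log2 fold changes in WT_SD were 2.64 ± 0.080 for *Syt1* (edgeR adjusted p = 4.21e-32) and -4.70 ± 0.16 for *Syt2* (adjusted p = 5.54e-30). *Syt2* made up 68.3% ± 3.75 (SD, n = 23) of the RPKM of both in brainstem and 1.45% ± 0.277 (SD, n = 24) in hippocampus. *Syt7*, a high-affinity sensor of slower release and of facilitation, was higher in hippocampus, with a log2 fold change of 1.07 ± 0.080 (adjusted p = 1.23e-16), and *Syt4* was lower there, with -0.44 ± 0.071 (adjusted p = 2.80e-07). *Syt11* was at 766 to 992 CPM in brainstem and 748 to 877 CPM in hippocampus and was not called in any of the 4 groups.

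Of the SNARE genes, the synaptobrevins, the vesicle's own SNARE proteins, showed a like pattern. *Vamp1* (ENSMUSG00000030337) was at 911 to 1205 CPM in brainstem (median 1102) and 84.7 to 111 CPM in hippocampus (median 102). *Vamp2* (ENSMUSG00000020894) was at 304 to 398 CPM (median 342) and 862 to 981 CPM (median 906). Neither gene overlapped between the regions. The log2 fold change in WT_SD was -3.48 ± 0.063 for *Vamp1* (edgeR adjusted p = 6.35e-41) and 1.43 ± 0.049 for *Vamp2* (adjusted p = 4.78e-30). The share of *Vamp1* in the RPKM of both was 54.4% ± 2.48 (SD, n = 23) in brainstem and 3.99% ± 0.222 (SD, n = 24) in hippocampus.

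*Stx1a*, which encodes a plasma membrane syntaxin, was at 6.60 to 11.5 CPM in brainstem and 67.0 to 79.9 CPM in hippocampus. Its log2 fold change of 3.11 ± 0.082 (edgeR adjusted p = 1.53e-34) was called in all 4 groups, and the libraries did not overlap. *Snap25*, the partner of syntaxin at the plasma membrane, was lower in hippocampus, with -0.47 ± 0.044 (adjusted p = 1.86e-13). The genes that take SNARE complexes apart differed less, with 0.56 ± 0.067 for *Nsf* (adjusted p = 2.79e-10) and 0.34 ± 0.051 for *Napa* (adjusted p = 6.44e-08). *Napa* was called in 3 of the 4 groups, its 0.27 in TG_HFD being under the fold threshold, and *Napb*, with 0.25 ± 0.051, in none. *Napb* made up 62.5% ± 2.37 (SD, n = 23) of the RPKM of both adaptor genes in brainstem and 61.7% ± 2.35 (SD, n = 24) in hippocampus. *Stxbp5*, which encodes tomosyn, an inhibitor of SNARE assembly, was higher in hippocampus, with 0.86 ± 0.084 (adjusted p = 6.79e-13).

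The SV2 family encodes vesicle glycoproteins that also serve as receptors of botulinum neurotoxin A. *Sv2c* (ENSMUSG00000051111) was at 179 to 366 CPM in brainstem (median 291) and 21.2 to 39.1 CPM in hippocampus (median 28.7), and *Sv2b* (ENSMUSG00000053025) at 148 to 198 CPM (median 171) and 431 to 635 CPM (median 559). Neither overlapped, with log2 fold changes in WT_SD of -3.34 ± 0.12 for *Sv2c* (edgeR adjusted p = 2.03e-28) and 1.69 ± 0.070 for *Sv2b* (adjusted p = 1.56e-26). *Sv2a*, at 366 to 553 CPM and 349 to 441 CPM, overlapped between the regions. Its log2 fold change of -0.31 ± 0.075 (adjusted p = 0.000342) lay close to the fold threshold and was -0.25 and no longer called with edgeR's own filter on low counts. In the RPKM of *Sv2b* and *Sv2c*, *Sv2c* took 59.0% ± 3.79 (SD, n = 23) in brainstem and 4.49% ± 0.735 (SD, n = 24) in hippocampus.

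**Figure D2:**
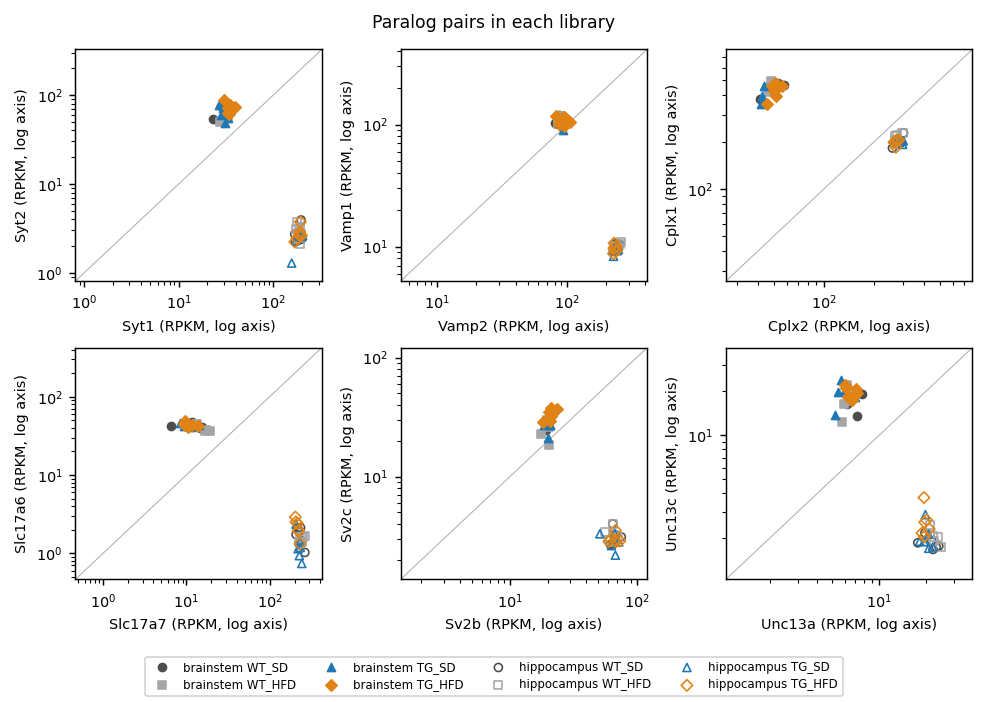
Level per length (RPKM, log axes) of both members of 6 paralog pairs in each of the 47 libraries, with filled symbols for brainstem, open symbols for hippocampus, shape and colour for the group and a diagonal where both genes are equal. In every panel the libraries form 1 cluster per region, and all 4 groups lie in each cluster.

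At the active zone, 6 of 7 genes were higher in hippocampus in WT_SD and 1 was lower. *Erc2*, whose product binds RIM and Bassoon, was at 34.4 to 53.9 CPM in brainstem and 191 to 258 CPM in hippocampus, with a log2 fold change of 2.48 ± 0.083 (edgeR adjusted p = 1.92e-30). *Bsn*, which encodes Bassoon, was at 49.7 to 87.0 CPM and 219 to 446 CPM, with 2.26 ± 0.13 (adjusted p = 6.15e-21). *Pclo*, which encodes the related Piccolo, was at 85.5 to 150.0 CPM and 160.2 to 266 CPM, with 0.99 ± 0.13 (adjusted p = 3.31e-09). None of these scaffold genes overlapped between the regions. Of the RIM genes, *Rims1* had 1.13 ± 0.064 (adjusted p = 4.32e-21) without overlap, and *Rims2* had 0.39 ± 0.078 (adjusted p = 1.88e-05) with overlap.

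The Munc13 genes, whose products prime vesicles, lay on opposite sides. *Unc13a* (ENSMUSG00000034799) was at 65.3 to 97.0 CPM in brainstem (median 79.3) and 222 to 310.3 CPM in hippocampus (median 262). *Unc13c* (ENSMUSG00000062151), known for its expression in cerebellum, was at 108 to 209 CPM (median 166) and 14.6 to 33.0 CPM (median 17.8). No library of one region reached those of the other. The log2 fold changes in WT_SD were 1.63 ± 0.074 for *Unc13a* (edgeR adjusted p = 4.63e-25) and -3.28 ± 0.14 for *Unc13c* (adjusted p = 5.96e-26). *Unc13c* made up 73.9% ± 3.57 (SD, n = 23) of the RPKM of both in brainstem and 9.30% ± 2.21 (SD, n = 24) in hippocampus.

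Of the synapsins, *Syn2* was at 230.1 to 274 CPM in brainstem and 647 to 791 CPM in hippocampus, with a log2 fold change of 1.52 ± 0.050 (edgeR adjusted p = 9.35e-31). *Syn1* was at 169 to 259.6 CPM and 336 to 508 CPM, with 0.86 ± 0.085 (adjusted p = 1.43e-12). Both were separate between the regions. *Syn3*, at 3.16 to 12.4 CPM and 3.72 to 10.1 CPM, overlapped and was called lower in hippocampus in TG_HFD (-0.65, adjusted p = 0.00451) but not in WT_SD (-0.43), WT_HFD (-0.39) or TG_SD (-0.34). *Syp*, which encodes the vesicle protein synaptophysin, was higher in hippocampus, with 0.58 ± 0.052, and its widely expressed relative *Sypl* was lower, with -1.10 ± 0.061 (adjusted p = 4.51e-14 and 2.11e-21).

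*Rab3a*, which encodes a vesicle GTPase, was at 314 to 487 CPM in brainstem and 387 to 480.2 CPM in hippocampus and was not called in any group, with log2 fold changes of 0.032 to 0.072. *Rab3b* was higher in hippocampus, with 0.46 ± 0.087 (edgeR adjusted p = 8.80e-06) and overlapping libraries, and made up 4.25% ± 0.461 (SD, n = 23) of the RPKM of both in brainstem and 5.38% ± 0.504 (SD, n = 24) in hippocampus. Of the endocytic genes, *Amph* had 0.84 ± 0.059, *Dnm1* 0.62 ± 0.095 and *Snap91* 0.35 ± 0.080 (adjusted p = 9.37e-18, 1.15e-07 and 0.000170). They encode amphiphysin, dynamin 1 and AP180. *Sh3gl2*, which encodes endophilin A1, was not called in any group (0.13 ± 0.060 in WT_SD). Reads of *Syp*, *Syt4*, *Syn3*, *Rab3b* and *Syt7* are uncertain, since 5.13 to 16.8% of their exon bases are shared with a gene on the opposite strand and the sources used here do not say whether counting used strand.

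Levels per length divide by the union of the exons of a gene, taken from GENCODE M21, an annotation older than the Ensembl release to which the reads were aligned. In this order the brainstem was headed by *Snap25*, with 459.7 ± 23.1 RPKM (SD, n = 23), followed by *Cplx1* with 433 ± 43.7, *Rab3a* with 187 ± 19.7 and *Syt11* with 172 ± 11.3. *Snap25* and *Cplx1* lay within 1 SD of each other, as did *Rab3a* and *Syt11*, whereas *Cplx1* and *Rab3a* did not. In hippocampus the order was *Snap25* with 343 ± 14.0 RPKM (SD, n = 24), *Cplx2* with 279 ± 12.6, *Vamp2* with 238 ± 9.07 and *Slc17a7* with 229 ± 16.4, of which *Vamp2* and *Slc17a7* alone lay within their spread. The order depended on the length used, and with that of the longest transcript 53 of the 76 levels moved by more than 1 SD. On that length brainstem *Snap25*, at 639.8 ± 32.1 RPKM, lay more than 1 SD from *Cplx1*, at 433 ± 43.7, and *Rab3a*, at 267 ± 28.2, was followed by *Nsf* with 232 ± 22.1, *Vamp1* with 192 ± 14.0 and *Syt11* with 178 ± 11.7. In hippocampus *Snap25*, at 478 ± 19.5 RPKM, was then followed by *Vamp2* with 412 ± 15.7, *Slc17a7* with 401 ± 28.8, *Nsf* with 355 ± 17.7, *Syt1* with 320.0 ± 20.6 and *Cplx2* with 279 ± 12.6. *Snap25* remained the highest and *Syn3* the lowest member in both regions on either length, *Syn3* with 0.665 ± 0.185 and 0.490 ± 0.127 RPKM over the union of exons. Of the paralog shares in brainstem, that of *Syt2* was 58.1%, that of *Sv2c* 50.3% and that of *Slc17a6* 72.7% with the longest transcript.

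Other synaptic genes were counted for comparison. Of 74 further presynaptic genes, 69 were tested, and in WT_SD 32 were called higher and 17 lower in hippocampus by edgeR, where 28.9% and 30.6% of all tested genes were, with a median log2 fold change of 0.15. The 3 largest on the side of hippocampus were *Doc2b*, which encodes a calcium-binding protein of spontaneous release (3.60 ± 0.088), *Syt17* (3.18 ± 0.10) and *Ppfia2*, which encodes liprin-alpha 2 (2.68 ± 0.084). The 3 on the side of brainstem were transporters of other transmitters. *Slc6a5*, which encodes the glycine transporter GlyT2, was at 249 to 466.2 CPM in brainstem and at most 0.517 CPM in hippocampus. *Slc18a3*, which encodes the vesicular acetylcholine transporter, was at 7.597 to 18.6 CPM and at most 0.0848 CPM, and *Slc18a2*, which encodes a vesicular monoamine transporter, at 29.6 to 64.4 CPM and 4.47 to 8.40 CPM. Of 32 postsynaptic genes, 29 were called higher in hippocampus and 2 lower, beside the same 28.9% and 30.6%, with a median of 2.20, beside 0.51 for the presynaptic members.

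Within a region, 0 presynaptic genes passed the thresholds for genotype, diet or their interaction, and few of all tested genes did. Each region was fitted on its own in edgeR, with 4 surrogate variables, which are covariates that sva estimates from the counts. In brainstem, 0 of 38 members were called in TG_SD against WT_SD, where 0.142% of the 13340 tested genes were, in TG_HFD against WT_HFD (0.0525% of all genes), in WT_HFD against WT_SD (0%), in TG_HFD against TG_SD (0.0075%) and for the genotype by diet interaction (0.0075%). In hippocampus 0 were called in TG_SD against WT_SD, where 0.098% of the 13272 tested genes were, in TG_HFD against WT_HFD (0.226%), in WT_HFD against WT_SD (0%), in TG_HFD against TG_SD (0%) and for the interaction (0%). DESeq2 with the same surrogate variables called 0 members in each of these contrasts. Counts of 0 lie near the shares of all genes, so nothing particular to the presynaptic genes is read from them. At the same thresholds, with DESeq2 and sva, the authors report more differentially expressed genes over the contrasts of each region. The cause of this gap was not tested.

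At an unadjusted p of at most 0.05 in edgeR, brainstem held 11 of 38 members in TG_SD against WT_SD (10.5% of all tested genes), 2 in TG_HFD against WT_HFD (5.59%), 4 in WT_HFD against WT_SD (5.43%), 5 in TG_HFD against TG_SD (6.91%) and 4 for the interaction (4.83%). Hippocampus held 6 (9.08%), 5 (11.3%), 4 (6.41%), 8 (7.08%) and 3 (5.98%) in the same order. These counts moved with the settings in both directions. With 0, 1, 2 and 3 surrogate variables they were 6, 0, 7 and 7 in TG_SD against WT_SD, 9, 17, 9 and 2 in TG_HFD against WT_HFD and 7, 14, 12 and 2 for the interaction in brainstem, and 11, 12, 12 and 4 in TG_HFD against WT_HFD in hippocampus. With single libraries left out the brainstem counts ranged over 5 to 13, 0 to 9 and 3 to 7 in the same 3 contrasts. In TG_SD against WT_SD the lowest was without WT_SD replicate 6, and in TG_HFD against WT_HFD the highest was without WT_SD replicate 4. The shares of all genes given above belong to the fit with 4 surrogate variables and all libraries alone. Nothing is therefore read from these counts.

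In hippocampus TG_HFD against WT_HFD, members passed the adjusted p alone, short of the fold threshold, in fits with fewer surrogate variables. The share of all tested genes that passed in those fits is not given here, so no excess among the members is read from these values. *Unc13a* was at 222 to 302 CPM in WT_SD (median 275), 264 to 310.3 CPM in WT_HFD (median 279.9), 228 to 277 CPM in TG_SD (median 254) and 237 to 263 CPM in TG_HFD (median 245). *Syn1* was at 423 to 508 CPM in WT_HFD and 353 to 419.6 CPM in TG_HFD. For these 2 of the 38 members the TG_HFD libraries all lay below those of WT_HFD, and groups that did not overlap were found for 4.27% of the tested genes in this contrast. In the other contrasts between groups 0 of 38 members were without overlap, beside 0.555%, 0.675%, 0.405% and 0.172% of all genes in brainstem (TG_SD against WT_SD, TG_HFD against WT_HFD, WT_HFD against WT_SD and TG_HFD against TG_SD) and 0.234%, 0.512% and 0.0452% in hippocampus (TG_SD against WT_SD, WT_HFD against WT_SD and TG_HFD against TG_SD). *Unc13a* had a log2 fold change of -0.090 ± 0.041 (edgeR adjusted p = 0.387) with 4 surrogate variables, -0.18 ± 0.035 (adjusted p = 0.00109) with 2, -0.19 ± 0.047 (adjusted p = 0.00776) with 1 and -0.19 ± 0.057 (adjusted p = 0.0391) with 0. With 2 surrogate variables *Slc17a7* (-0.15 ± 0.047), *Syn1* (-0.15 ± 0.047) and *Bsn* (-0.27 ± 0.089) passed as well (adjusted p = 0.0274, 0.0301 and 0.0384), where with 4 they had 0.030 ± 0.041, -0.030 ± 0.050 and -0.16 ± 0.074. GC slope, the slope of a library's log2 deviations on GC content per 10% of GC, was -0.020 to 0.16 (median 0.11) in the WT_HFD libraries and -0.12 to 0.0067 (median -0.052) in those of TG_HFD. With a GC correction and 0 surrogate variables *Unc13a* had -0.10 ± 0.060 (adjusted p = 0.497), *Slc17a7* -0.024 ± 0.039, *Syn1* 0.014 ± 0.059 and *Bsn* -0.058 ± 0.12, and the lowest adjusted p of any member was 0.124. In brainstem *Cplx1* passed the adjusted p alone in TG_SD against WT_SD without WT_SD replicate 4, at -0.16 ± 0.034 (adjusted p = 0.0257), beside -0.10 ± 0.037 (adjusted p = 0.296) with all libraries. These values were chosen after they were seen.

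The estimates were small as well as uncalled. The log2 fold change was under 0.3 in size for 37 of 38 members in brainstem and 35 in hippocampus in TG_SD against WT_SD, and for 38 and 38 in TG_HFD against WT_HFD. The 95% interval lay wholly within 0.3 either way for 36 and 34 members in the former contrast and for 36 and 31 in the latter. These intervals take the surrogate variables as given. The median over the members in TG_SD against WT_SD was -0.040 in brainstem, beside 0.0013 for all genes, and 0.0099 in hippocampus, beside -0.00057. In TG_HFD against WT_HFD it was 0.00088 in brainstem, beside 0.0055, and -0.011 in hippocampus, beside -0.0054.

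**Figure D3:**
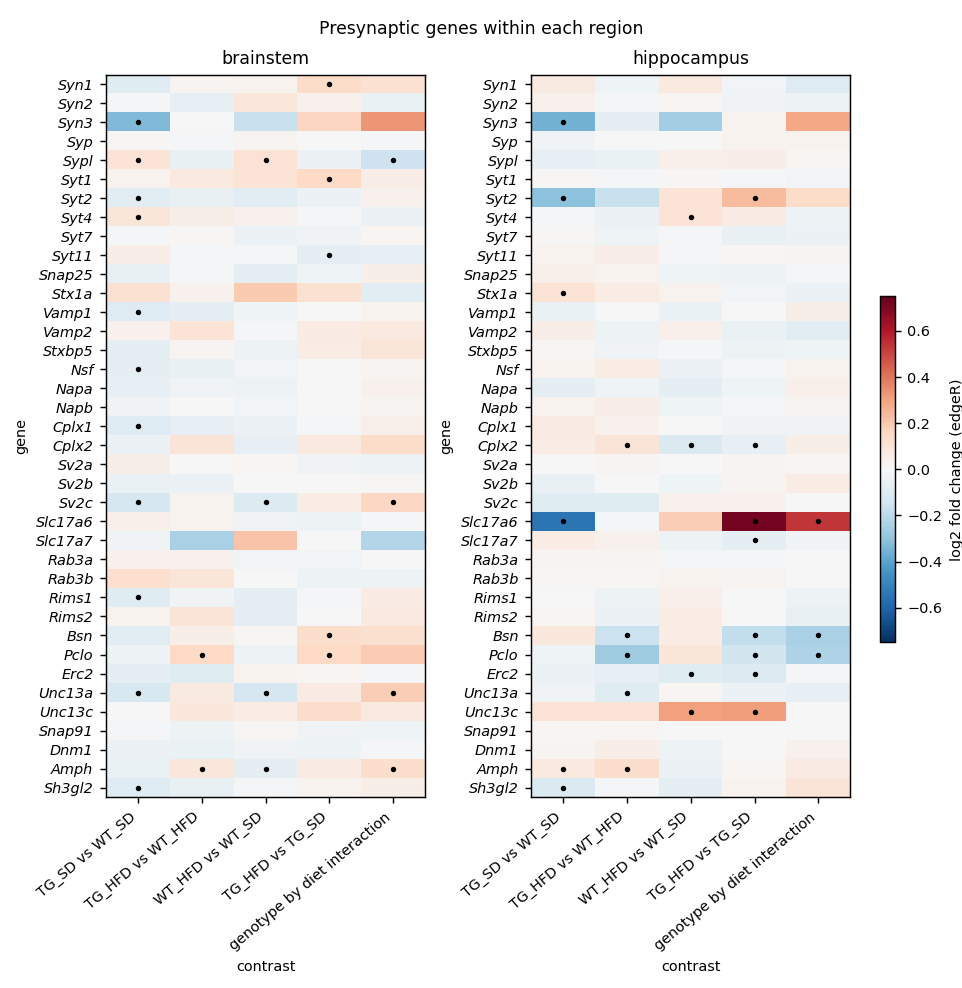
Log2 fold change of each of the 38 presynaptic genes in the 4 contrasts between groups and the genotype by diet interaction, in brainstem (left) and hippocampus (right), as colours from blue (lower) to red (higher). A dot marks an unadjusted p of at most 0.05, and 0 values passed the adjusted threshold. Slc17a6 in hippocampus holds the largest values in either direction.

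The widest estimate belonged to *Slc17a6* in hippocampus, where VGLUT2 transcripts are scarce. It was at 5.52 to 11.4 CPM in WT_SD (median 9.82), 7.47 to 9.03 CPM in WT_HFD (median 8.61), 3.99 to 12.6 CPM in TG_SD (median 6.29) and 7.12 to 15.6 CPM in TG_HFD (median 11.7). All groups overlapped, and replicate 3 was the highest library of TG_SD and also of TG_HFD. The log2 fold change was -0.55 ± 0.17 in TG_SD against WT_SD (edgeR adjusted p = 0.248) and 0.72 ± 0.16 in TG_HFD against TG_SD (adjusted p = 0.149). The latter was past the threshold without TG_HFD replicate 6, at 0.83 (adjusted p = 0.0250), and with no filter on low counts, at 0.70 (adjusted p = 0.0202). Over all its alternatives the adjusted p ranged from 0.0202 to 1. In TG_HFD against WT_HFD the value was -0.014 ± 0.22 (adjusted p = 0.989), and it was 0.49 (adjusted p = 0.0293) and past the threshold with only these 2 groups in the fit and 0 surrogate variables. These contrasts share libraries.

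*Unc13c*, the scarce Munc13 gene of hippocampus, was at 14.6 to 18.9 CPM in WT_SD, 15.2 to 21.3 CPM in WT_HFD, 14.9 to 25.2 CPM in TG_SD and 17.8 to 33.0 CPM in TG_HFD. The groups overlapped, and replicate 3 was the highest of each TG group. The log2 fold change of HFD against SD was 0.31 ± 0.14 in WT (edgeR adjusted p = 0.740) and 0.31 ± 0.11 in TG (adjusted p = 0.540). *Syt2*, at 17.1 to 30.04 CPM in WT_SD and 9.84 to 20.2 CPM in TG_SD, overlapped too, with -0.31 ± 0.12 (adjusted p = 0.417). These values were chosen after they were seen.

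*Pclo* and *Bsn*, the large scaffold genes, spread widely in hippocampus. *Pclo* was at 160.2 to 266 CPM in WT_SD (median 215), 173 to 237 CPM in WT_HFD (median 202), 160.3 to 256 CPM in TG_SD (median 166) and 165 to 229 CPM in TG_HFD (median 179). The ranges overlapped. The 8 libraries numbered 3 and 4, from all 4 groups, lay at 205 to 266 CPM of *Pclo*, and the 16 numbered 5 to 8 at 160.2 to 264 CPM with a median of 170.3. For *Bsn* the medians of these libraries were 360 and 274 CPM, a division that was chosen after the values were seen. In TG_HFD against WT_HFD, *Pclo* had a log2 fold change of -0.27 ± 0.083 (edgeR adjusted p = 0.163). It was past the threshold without TG_SD replicate 5, at -0.37 (adjusted p = 0.0381), and without WT_HFD replicate 6, at -0.38 (adjusted p = 0.0403), and was -0.12 (adjusted p = 0.651) without surrogate variables. Over all its alternatives the adjusted p ranged from 0.0381 to 0.709. *Bsn* had -0.18 ± 0.054 in TG_HFD against TG_SD (adjusted p = 0.306) and -0.24 ± 0.085 for the interaction (adjusted p = 0.679). With 0 surrogate variables and no GC correction these *Bsn* values were -0.094 and -0.15. With a GC correction and 0 surrogate variables they were -0.075 and 0.0044, the latter being the sign change in 1 of 40 alternatives. *Bsn* has the highest GC content of the members, and the part of GC content in its values was not tested. The *Pclo* value in TG_HFD against WT_HFD was -0.17 (adjusted p = 0.633) with the same correction.

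The other members of lowest p in hippocampus had smaller or less certain values. In TG_SD against WT_SD, *Sh3gl2* had a log2 fold change of -0.11 ± 0.041 and *Syn3* -0.35 ± 0.14 (edgeR adjusted p = 0.353 and 0.376). In TG_HFD against WT_HFD, *Amph* had 0.13 ± 0.042 and *Cplx2* 0.10 ± 0.041 (adjusted p = 0.188 and 0.317), and the latter changed sign in 7 of 41 alternatives. In WT_HFD against WT_SD, *Cplx2* had -0.11 ± 0.034 and *Erc2* -0.090 ± 0.036 (adjusted p = 0.635 and 0.722). The interaction of *Pclo*, -0.23 ± 0.094 (adjusted p = 0.749), changed sign in 5 of 40.

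In brainstem the members of lowest p in TG_SD against WT_SD were *Sv2c*, *Unc13a* and *Sypl*. *Sv2c* had 317, 312, 237, 346 and 345 CPM in WT_SD, the lowest being replicate 6, and 205 to 309 CPM in TG_SD (median 265). *Unc13a* had 90.7, 78.7, 78.03, 89.8 and 97.0 CPM in WT_SD and 65.3 to 88.5 CPM in TG_SD (median 74.0), and *Sypl* had 79.6, 87.1, 86.1, 87.8 and 91.5 CPM and 90.2 to 103.5 CPM (median 93.6). All overlapped between the groups. The log2 fold changes were -0.13 ± 0.038 for *Sv2c* (edgeR adjusted p = 0.178), -0.12 ± 0.041 for *Unc13a* (adjusted p = 0.266) and 0.10 ± 0.037 for *Sypl* (adjusted p = 0.282). *Unc13a* and *Sypl* were also lowest in p in WT_HFD against WT_SD, with -0.12 ± 0.044 and 0.11 ± 0.039 (both adjusted p = 0.896), and for the interaction, with 0.18 ± 0.064 and -0.16 ± 0.057 (both adjusted p = 0.993). These contrasts share the WT_SD libraries.

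*Syn3*, which encodes the least abundant synapsin, had 10.9, 8.91, 7.38, 10.8 and 9.46 CPM in WT_SD of brainstem. It was at 6.19 to 10.0 CPM in WT_HFD, 3.16 to 8.29 CPM in TG_SD and 4.53 to 12.4 CPM in TG_HFD. The TG_SD median of 6.90 CPM lay below all 5 WT_SD libraries, yet the ranges overlapped. The log2 fold change of TG_SD against WT_SD was -0.33 ± 0.16 (edgeR adjusted p = 0.474) and, without surrogate variables, -0.50 (adjusted p = 0.788). Of its exon bases 14.1% are shared with *Timp3* on the opposite strand.

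*Slc17a7*, the transporter that is scarce in brainstem, had 82.0, 79.5, 34.9, 62.3 and 55.4 CPM in WT_SD. The other groups lay at 63.4 to 103 CPM (WT_HFD), 45.7 to 76.2 CPM (TG_SD) and 50.01 to 74.0 CPM (TG_HFD). WT_HFD reached highest but overlapped with every other group. Its log2 fold change in TG_HFD against WT_HFD was -0.24 ± 0.13 (edgeR adjusted p = 0.90) with surrogate variables and -0.49 ± 0.16 (adjusted p = 0.145) without. Like those of *Syn3* in brainstem, these values were chosen after they were seen.

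In TG_HFD against WT_HFD of brainstem, the lowest p values belonged to *Amph* (0.086 ± 0.039), *Pclo* (0.15 ± 0.072) and *Vamp2* (0.10 ± 0.054), with edgeR adjusted p of 0.865, 0.884 and 0.890. *Pclo* was at 85.5 to 110.2 CPM in WT_HFD and 107 to 150.0 CPM in TG_HFD. The groups overlapped at their edges, and DESeq2 without surrogate variables called this gene, at 0.32 (adjusted p = 0.0303), while the adjusted p over all its alternatives ranged from 0.0303 to 1. In TG_HFD against TG_SD, *Syn1* had 0.14 ± 0.049 and *Bsn* 0.13 ± 0.048 (adjusted p = 0.546 and 0.572). Without surrogate variables the median log2 fold change of the members was 0.075 in TG_HFD against WT_HFD, -0.071 in TG_SD against WT_SD and 0.15 for the interaction, where it was 0.00088, -0.040 and 0.029 with them. Neither of these edgeR fits called a member.

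Technical measures varied between the groups of brainstem as well. The GC slope had medians of 0.046 in WT_SD, 0.13 in WT_HFD, -0.055 in TG_SD and -0.020 in TG_HFD. The members themselves spanned 38.7 to 59.8% GC. All 5 choroid plexus markers were above 1 CPM in brainstem, and their sum was 21.6 to 1573 CPM in WT_SD, 30.1 to 2880.3 CPM in WT_HFD, 17.9 to 2952 CPM in TG_SD and 12.01 to 2428 CPM in TG_HFD. The part of either measure in the values of the members was not tested. With a GC correction in place of surrogate variables, *Pclo* had 0.26 in TG_HFD against WT_HFD (edgeR adjusted p = 0.207).

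**Figure D4:**
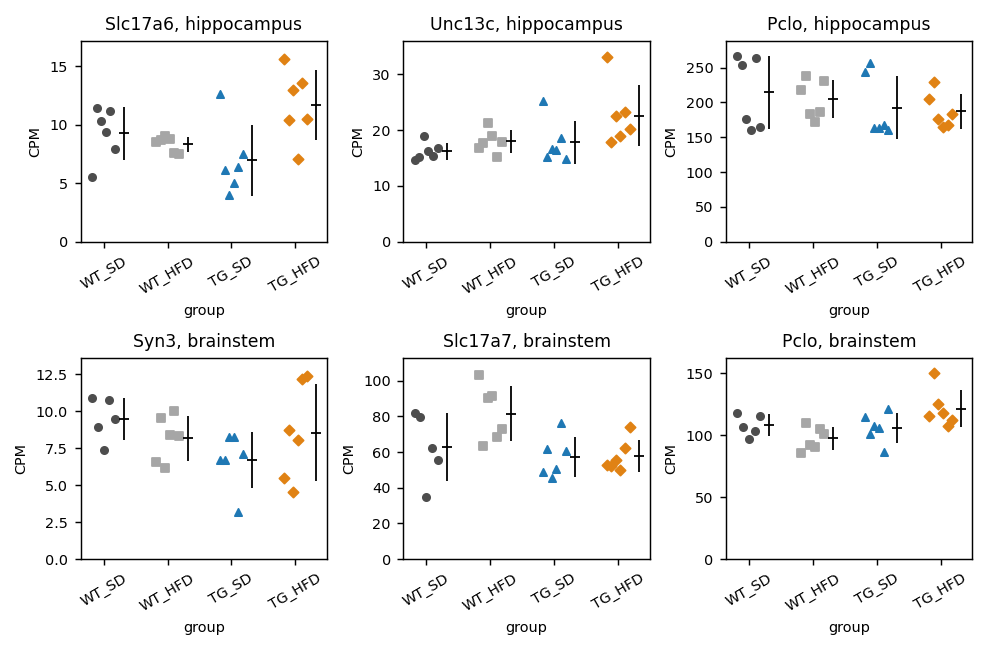
CPM in each library, by group, of Slc17a6, Unc13c and Pclo in hippocampus and Syn3, Slc17a7 and Pclo in brainstem, with 1 symbol per library and the mean with its SD as a bar beside each group. The axes start at 0. The groups overlap in every panel.

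Finally, the genotype effect was compared between the regions in the model of all libraries. On SD, 0 of 38 members were called for a difference (0.00743% of all tested genes) by edgeR, with 1 at an unadjusted p of at most 0.05 (2.76%). On HFD, 0 were called (0.00743%), with 7 at an unadjusted p of at most 0.05 (5.65%). DESeq2 called 0 in both. The median difference over the members, hippocampus minus brainstem, was 0.038 on SD and -0.069 on HFD, beside 0.0012 and -0.013 for all genes. Among the other presynaptic and the postsynaptic genes, edgeR called 0 for genotype, diet or interaction within either region.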

How the data were processed

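Poly(A)-selected single-end libraries of 47 brainstem and hippocampus samples were used. Raw counts of reads per gene were deposited by the authors as 1 table per region, after FastQC 0.11.9 and alignment with STAR 2.7.9a to the mouse genome of Ensembl with the human transgene added. How reads were assigned to genes, and whether by strand, is not given in the sources used here. Genes listed in 1 table only (3281 of brainstem, 1893 of hippocampus) were set to 0 in the other. The members and lists were chosen with earlier results of these data known.

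Counts were normalised by TMM and tested with edgeR 4.0.16 in R 4.3.3 (glmQLFit, glmQLFTest), over genes whose mean count was 50 or more. Each region was fitted with its 4 groups and 4 surrogate variables of sva 3.50.0, and both regions together with 8 groups and 0 surrogate variables. P-values were adjusted over all tested genes by Benjamini-Hochberg, and genes were called at an adjusted p of at most 0.05 and a log2 fold change of at least 0.3 either way. CPM are counts per 1000000 of the TMM-scaled library size, and RPKM divide them by the union of exons in GENCODE M21, an older annotation than the Ensembl release of the alignment, from which GC content and exon overlaps were also taken. The members given with values were the 3 of lowest p in each genotype contrast, the 2 of lowest p in each diet contrast and interaction, the 6 with the largest region difference in each direction and 10 paralog sets. Alternatives were DESeq2 1.42.0, other normalizations, filters, surrogate variables, GC and length corrections, a replicate block and each library left out. The code was tested on simulated data. Within groups, 115 pairs of libraries were compared, and none agreed within sampling noise (lowest chi-square per gene 3.19). The replicates are taken to be separate animals. Figures were drawn with matplotlib 3.10.9.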

Additional observations from a re-analysis of the deposited data

Results flagged for a closer look

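For the 29 named members, the CPM of each library was compared with the others of its group by Dixon's test at the 95% level. Of 232 groups, 21 held a library that stood apart. Chance gives about 1 in 20 for independent tests, but the genes share their libraries, so this rate is no measure for the 232 together. In brainstem, WT_SD replicate 6, which had the lowest mean log2 deviation of the members of any library of the region (-0.19), stood apart in 4 genes. *Syn1* was at 168.6 CPM there and at 229.5 to 253.4 CPM in the rest of the group. *Syt2* was at 410.2 CPM there and at 572.2 to 623.3 CPM in the rest of the group. *Cplx1* was at 828.1 CPM there and at 1022 to 1059 CPM in the rest of the group. *Sv2a* was at 365.6 CPM there and at 498.3 to 532.6 CPM in the rest of the group. In hippocampus, TG_HFD replicate 3 stood apart in 4 genes. *Syn1* was at 353.4 CPM there and at 406.6 to 419.6 CPM in the rest of the group. *Cplx1* was at 405.4 CPM there and at 434.5 to 450.1 CPM in the rest of the group. *Rab3b* was at 33.37 CPM there and at 39.01 to 41.69 CPM in the rest of the group. *Unc13c* was at 32.99 CPM there and at 17.83 to 23.23 CPM in the rest of the group. Without brainstem WT_SD replicate 6, 33 members were called between the regions in WT_SD, as with it.

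In the other cases 1 library stood apart in 1 gene. *Syn1* was at 202 CPM in brainstem TG_HFD replicate 6 and at 242.5 to 259.6 CPM in the rest of the group. *Syn3* was at 3.157 CPM in brainstem TG_SD replicate 7 and at 6.685 to 8.288 CPM in the rest of the group. *Sypl* was at 103.5 CPM in brainstem TG_SD replicate 1 and at 90.25 to 94.36 CPM in the rest of the group. *Sypl* was at 98.16 CPM in brainstem WT_HFD replicate 8 and at 85.54 to 88.92 CPM in the rest of the group. *Syt2* was at 9.842 CPM in hippocampus TG_SD replicate 6 and at 17.76 to 20.22 CPM in the rest of the group. *Napa* was at 138.7 CPM in brainstem TG_HFD replicate 3 and at 167.2 to 171 CPM in the rest of the group. *Napa* was at 183.2 CPM in brainstem WT_HFD replicate 4 and at 167.7 to 173.4 CPM in the rest of the group. *Napb* was at 587.6 CPM in brainstem WT_SD replicate 7 and at 501.2 to 524.4 CPM in the rest of the group. *Cplx2* was at 1466 CPM in hippocampus WT_HFD replicate 4 and at 1314 to 1363 CPM in the rest of the group. *Sv2b* was at 156.4 CPM in brainstem TG_SD replicate 5 and at 167.2 to 173.6 CPM in the rest of the group. *Sv2c* was at 34.2 CPM in hippocampus TG_HFD replicate 8 and at 27.63 to 28.79 CPM in the rest of the group. *Rims1* was at 179.3 CPM in hippocampus WT_SD replicate 7 and at 157.8 to 165.7 CPM in the rest of the group. *Unc13c* was at 25.24 CPM in hippocampus TG_SD replicate 3 and at 14.89 to 18.56 CPM in the rest of the group.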

How the results depend on the processing

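The count of members called between the regions, 33 in each group, was 31 to 36 under the other normalizations, filters, corrections and DESeq2, and 32 to 34 (32 to 33 in TG_HFD) with single libraries left out. At a log2 fold change of 1 it was 19 in WT_SD, 22 in WT_HFD, 18 in TG_SD and 19 in TG_HFD, since fewer genes reach a higher fold. Apart from WT_SD at this fold, the shares of all tested genes under these settings are not given here. No excess among the members is therefore read from those counts. Within the regions the count of 0 became 1 in brainstem TG_HFD against WT_HFD with DESeq2 and 0 surrogate variables (*Pclo*), an alternative chosen after seeing the data. In hippocampus TG_HFD against WT_HFD it became 1 with only the 2 groups in the fit (*Slc17a6*) and ranged from 0 to 1 with single libraries left out (*Pclo*). There the lowest adjusted p of a member, 0.163, was 0.0391, 0.00776 and 0.00109 with 0, 1 and 2 surrogate variables, 0.0106 with a length correction and 0.00837 with a replicate block, both with 0, and 0.0218 with DESeq2 and 0, so that members passed the adjusted p and fell short of the fold threshold alone. It was 0.124 with a GC correction and 0. In hippocampus TG_HFD against TG_SD it became 1 with no filter on low counts and ranged from 0 to 1 with single libraries left out (*Slc17a6*). For these the cause was not tested. In the other within-region contrasts, and for the difference of the genotype effect between regions, it stayed 0 under all alternatives run and with each library left out. No called value changed sign, and 14 of 968 alternative values of uncalled named members did.

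Correlations of same-numbered libraries of different groups ranged from -0.314 to 0.406 over 26 pairs in brainstem (median 0.0197, against -0.0256 for other pairs) and from -0.17 to 0.451 over 36 in hippocampus (median 0.0785, against -0.0548). For libraries of the same group and number in both regions they ranged from -0.0909 to 0.597 over 17 pairs (median 0.114, against -0.0229), and 11 were over 0.1. Not every pair was over 0.1 in any of the 3 sets, so the numbers were not taken as pairs, but the regions' libraries may not be independent of each other. With the number as a replicate block, 0 members were called in each within-region contrast, and 32, 32, 31 and 33 between the regions in WT_SD, WT_HFD, TG_SD and TG_HFD over 34 libraries. The shares of all tested genes in the block fits are not given here. The number of animals limits precision, the estimates vary with the number of surrogate variables, and members of low count (*Syn3*, and *Slc17a6*, *Unc13c* and *Syt2* in hippocampus) have the widest errors.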
